A study of Rattus norvegicus with 4 samples.

Results

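Transcripts of 8 genes of cholesterol synthesis and its feedback control, Hmgcs1, Sqle, Idi1, Fdft1, Fdps, Dhcr7, Insig1 and Srebf2, were read from RNA-seq of rat ear skin. They were taken by gene symbol, and each matched 1 of the 54532 gene rows of the deposited tables. The tested ears received AAV-Fgf7, an adeno-associated virus that carries the gene for fibroblast growth factor 7, and their samples are labelled as Fgf7 overexpression. The other ears received AAV-control and are labelled as wild type. Both ears of 2 Sprague Dawley (SD) rats were sampled on day 3, so each group held 2 libraries, 1 from each rat. The titles and the design text disagree on which ear received which virus, so ear side was not used. The sources used here do not state the animals' age or sex, or the promoter that drives the transgene.

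Cells make cholesterol from acetyl-CoA by way of mevalonate, isoprenoid diphosphates, squalene and lanosterol. When sterols in the endoplasmic reticulum run low, the escort protein SCAP carries the membrane-bound transcription factor SREBP-2, the product of Srebf2, to the Golgi, where proteases release its active part. When sterols are plentiful, Insig proteins hold SCAP back, and genes of the pathway are transcribed less. In skin, keratinocytes synthesise much of their own cholesterol for the permeability barrier, sebocytes make sterols and squalene for sebum, and 7-dehydrocholesterol in the epidermis is the precursor of vitamin D. FGF7 acts on epithelial cells, so the comparison of the ears asks whether these transcripts differed when it was delivered. None of the 8 genes encodes an uptake receptor, so uptake is described below from a separate list of genes.

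Windows around the annotated start are shown for Srebf2, Hmgcs1 and Dhcr7, members from the regulator, the entry and the end of the pathway. Whether the feedback acts through these windows was not tested. Each runs from 250 bases before to 50 bases after the start of the gene in the rat assembly GRCr8, as given by RefSeq, and 6 of the 8 genes matched an entry. Capitals mark CCAAT, the box bound by NF-Y, on either strand (ATTGG when read on the gene's strand), and TCACCCC, a core of sterol regulatory elements.
Srebf2, chr7:115543057-115543356, plus strand: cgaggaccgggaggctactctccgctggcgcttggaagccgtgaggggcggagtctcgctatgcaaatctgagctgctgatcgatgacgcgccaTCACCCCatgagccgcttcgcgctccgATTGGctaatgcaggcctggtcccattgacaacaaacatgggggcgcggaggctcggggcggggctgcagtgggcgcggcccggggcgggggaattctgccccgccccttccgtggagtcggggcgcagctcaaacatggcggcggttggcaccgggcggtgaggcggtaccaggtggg
Hmgcs1, chr2:53382054-53382353, plus strand: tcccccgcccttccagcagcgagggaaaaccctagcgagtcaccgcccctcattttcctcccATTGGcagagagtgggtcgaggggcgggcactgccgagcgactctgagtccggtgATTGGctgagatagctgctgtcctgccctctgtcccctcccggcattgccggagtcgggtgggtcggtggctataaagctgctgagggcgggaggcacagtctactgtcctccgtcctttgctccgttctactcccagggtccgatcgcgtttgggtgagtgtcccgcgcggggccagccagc
Dhcr7, chr1:208444184-208444483, plus strand: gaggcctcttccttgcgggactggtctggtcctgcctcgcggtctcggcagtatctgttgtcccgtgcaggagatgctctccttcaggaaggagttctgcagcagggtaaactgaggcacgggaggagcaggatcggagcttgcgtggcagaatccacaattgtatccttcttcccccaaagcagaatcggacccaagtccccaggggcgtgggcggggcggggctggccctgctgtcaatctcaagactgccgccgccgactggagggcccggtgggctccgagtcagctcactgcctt

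The box CCAAT was present in 5 of the 6 matched windows (all but Dhcr7), against 37.5% of all 33469 rat windows of the same length. In Srebf2 it began 129 bases before the start and the sterol core 156 bases before it, while Hmgcs1 held the box at 188 and 133 bases. The core TCACCCC was in 1 of the 6 windows, that of Srebf2, against 4.65% of all windows, and was chosen after the windows had been read. The longer form TCACNCCAC was in 0 of the 6, against 1.12% of all. GGGCGG, the GC box, was in 5 of the 6 against 33.1%, and CACGTG, an E-box, in 1 of the 6 (Insig1) against 6.42%. Both strands were searched and no motif was required to stand clear of another. Only these exact letters were sought, with N as any base, so a window without a match may hold another form of a sterol element. These matches describe letters only, and factor binding was not measured.

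The 4 libraries held few counts. The AAV-Fgf7 libraries of rats 1 and 2 held 1433247 and 1417294 counts in all, and the control libraries 1299136 and 1601321. As a check of the labels, Fgf7 had 454 and 1429 counts in the AAV-Fgf7 ears, against 94 and 110 in the control ears, so both treated libraries lay above both controls. Of the 12902 genes with a count, 6370 passed a low-count filter and were tested with edgeR's quasi-likelihood test. Of the 8 members, 2 (Dhcr7 and Srebf2) passed that filter, 3 (Insig1, Hmgcs1 and Sqle) had counts below it, and 3 (Idi1, Fdps and Fdft1) had none in any library. Of the 22046 protein-coding rows, 26.6% were tested. Over the 4 libraries Dhcr7 had more counts than 32.2% of the tested genes and Srebf2 more than 26.3%.

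Although the animals were rats, the tables list mouse gene models, and the sources used here do not state how reads of one species came to be counted under the other. A count of 0 therefore does not show that a transcript was absent. Of all protein-coding rows, 47.6% had no count in any library. Among 12 reference genes that most cells express, looked up after the data were seen, Gusb and Ppia had no count in any library. Gapdh, the glycolytic enzyme, had 0 and 1 counts in the AAV-Fgf7 libraries and 0 and 0 in the controls. Rplp0, B2m and Sdha held 5, 7 and 22 counts over the 4 libraries and missed the low-count filter. The rest passed it. Actb, the cytoplasmic actin gene, was the best covered, with 6898 and 13125 counts in AAV-Fgf7 ears and 11098 and 6281 in control ears.

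**Figure D1:**
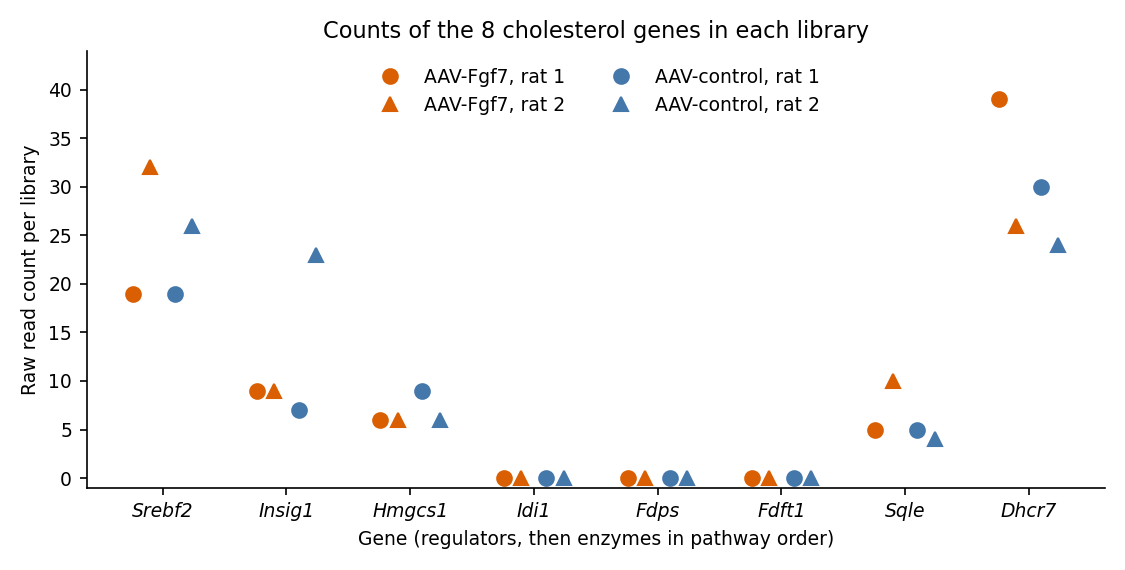
Raw read counts of the 8 genes in each library. Symbols are single libraries, orange for AAV-Fgf7 and blue for AAV-control, circles for rat 1 and triangles for rat 2. The highest point is 39 counts (Dhcr7), 3 genes lie at 0 in every library, and the groups overlap for every gene with counts.

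In no member did the AAV-Fgf7 libraries stand apart from the controls. The 8 genes together held 78 and 83 counts in the AAV-Fgf7 libraries of rats 1 and 2, against 70 and 83 in the control libraries. Scaled for library size by TMM factors, the sum was 56.3 ± 1.68 CPM (counts scaled to a common library total) in AAV-Fgf7 ears and 54.2 ± 1.48 CPM in control ears (SD, n = 2 each). edgeR called 0 of the 2 tested members, as did DESeq2 and limma-voom, and 0 had an unadjusted p under 0.05. The background was 0 of 6370 genes by edgeR (0.0%), with 148 genes (2.32%) at an unadjusted p under 0.05. DESeq2 called 4 of the 6370 (0.0628%). Fgf7, the delivered gene, was itself not called by edgeR, at a log2 fold change of 3.18 (SE 0.54, unadjusted p = 0.00100, adjusted p = 0.9996), nor by limma-voom, and was called by DESeq2 (adjusted p = 3.47e-07). A count of 0 called in this edgeR fit therefore does not show that the members did not differ. With every gene that had a count in the fit, edgeR called 0 of 5 members, beside 3 of 12902 genes (0.0233%), and Fgf7 passed (adjusted p = 0.00512). An exact permutation test of 2 against 2 libraries cannot give a two-sided p below 0.33.

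Among the regulators, Srebf2 had 19 and 32 counts in the AAV-Fgf7 ears of rats 1 and 2, against 19 and 26 in their control ears. Scaled, that was 17.8 ± 6.18 CPM in AAV-Fgf7 ears and 15.9 ± 2.04 CPM in control ears (SD, n = 2). Both values of the control ears lay between those of the AAV-Fgf7 ears. The log2 fold change was 0.16 (SE 0.43), with a 95% interval from -0.89 to 1.22 and an edgeR adjusted p of 0.9996 (unadjusted 0.720). When the AAV-Fgf7 ear of rat 2 was left out the log2 fold change was -0.24, so its sign rested on that library. The gene is listed as ENSMUSG00000022463 on mouse chromosome 15 (82147181 to 82205379, plus strand), and the sources used here do not name the mouse build.

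Insig1, whose product anchors SCAP in the endoplasmic reticulum and whose own transcript is induced by SREBP-2, varied most between the control ears among the members with counts. It had 9 and 9 counts in the AAV-Fgf7 ears of rats 1 and 2, against 7 and 23 in their control ears. In CPM these were 6.36 and 6.23 in AAV-Fgf7 ears and 5.32 and 15.3 in control ears. The control ear of rat 2 was thus the high one, and the remaining 3 libraries lay close together. The AAV-Fgf7 ear held 1.196 times the level of the control ear in rat 1 and 0.407 times in rat 2. Insig1 missed the filter. In an edgeR fit of every gene with a count it had a log2 fold change of -0.72 (SE 0.64, adjusted p = 0.975). Without the control library of rat 2, the log2 ratio of its mean CPM was 0.24, against -0.71 with all libraries. It is listed as ENSMUSG00000045294 on mouse chromosome 5 (28071363 to 28078662, plus strand).

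Of the mevalonate arm, which ends at farnesyl diphosphate, Hmgcs1 was the member with counts. It encodes the synthase that makes HMG-CoA, an early intermediate of the pathway. It had 6 and 6 counts in AAV-Fgf7 ears against 9 and 6 in control ears, or 4.20 ± 0.0588 and 5.41 ± 2.01 CPM (SD, n = 2). A count of 6 has an exact Poisson 95% interval of 2.20 to 13.1 counts and a count of 9 one of 4.12 to 17.1, for counting error only. These intervals overlap, which is not itself a test of a difference. In the edgeR fit without the filter the log2 fold change of Hmgcs1 was -0.35 (SE 0.75, adjusted p = 0.993). The log2 ratio of its mean CPM was -0.37 with all libraries and 0.071 when the control ear of rat 1 was left out. Idi1, the isomerase that turns isopentenyl diphosphate into its reactive isomer, and Fdps, which joins these units into farnesyl diphosphate, had 0 counts in each library. At a one-sided 95% limit, a count of 0 allows up to 3 counts, which is 2.12 and 2.08 CPM in the AAV-Fgf7 libraries and 2.28 and 1.997 CPM in the controls. A further row, described as an Fdps pseudogene, also had 0 counts in all.

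Of the sterol arm, from farnesyl diphosphate to cholesterol, 3 members were measured or sought. Fdft1, squalene synthase, had 0 counts in every library. Sqle, squalene epoxidase, a control point of the pathway, had 5 and 10 counts in the AAV-Fgf7 ears of rats 1 and 2, against 5 and 4 in their control ears. That was 5.23 ± 2.40 CPM in AAV-Fgf7 ears and 3.23 ± 0.80 CPM in control ears (SD, n = 2), with the AAV-Fgf7 library of rat 2 the high one. The AAV-Fgf7 ear held 0.930 times the level of the control ear in rat 1 and 2.60 times in rat 2. The edgeR fit without the filter gave a log2 fold change of 0.69 (SE 0.82, adjusted p = 0.975). When the AAV-Fgf7 ear of rat 2 was left out, the log2 ratio of mean CPM was 0.13, against 0.69 with all libraries.

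Dhcr7, the reductase that converts 7-dehydrocholesterol to cholesterol, was the best covered member. It had 39 and 26 counts in the AAV-Fgf7 ears of rats 1 and 2, against 30 and 24 in their control ears. Scaled, these were 27.5 and 18.0 CPM in AAV-Fgf7 ears and 22.8 and 16.0 CPM in control ears. Within each rat, as the columns were assigned, the AAV-Fgf7 ear was the higher, by ratios of 1.21 and 1.13. The groups overlapped, since the control ear of rat 1 lay above the AAV-Fgf7 ear of rat 2. The log2 fold change was 0.24 (SE 0.41), with a 95% interval from -0.77 to 1.24 and an edgeR adjusted p of 0.9996 (unadjusted 0.589). With the AAV-Fgf7 ear of rat 1 left out, the value was -0.11. It is listed as ENSMUSG00000058454 on mouse chromosome 7 (143823145 to 143848410, plus strand).

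Per length of transcript, Dhcr7 stood highest of the members in the authors' FPKM, in which counts are divided by the length of the gene model and by a library total. Its mean over the 4 libraries was 3.56 FPKM, followed by Insig1 at 2.63, Srebf2 at 2.30, Hmgcs1 at 1.03 and Sqle at 0.748 FPKM. Single libraries of Dhcr7 (2.70 to 4.63 FPKM), Insig1 (1.69 to 4.86) and Srebf2 (1.83 to 3.03) overlapped, so their order was not resolved. Hmgcs1 (0.853 to 1.47) lay below all of these in every library, and overlapped with Sqle (0.471 to 1.22). The median level of the 6370 tested genes was 8.78 FPKM. Since the share of each rat transcript that reached its mouse gene model is unknown, differences between genes may be differences in assignment.

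**Figure D2:**
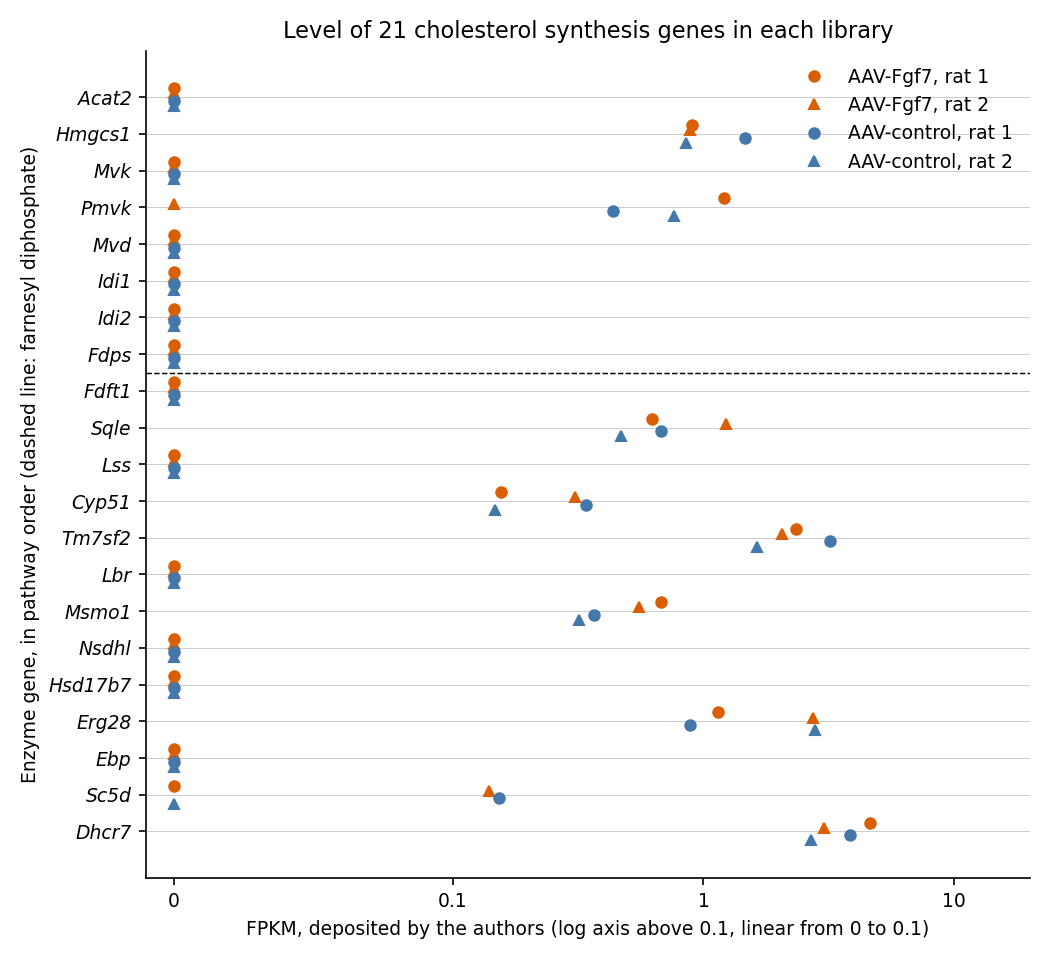
Level of 21 genes of cholesterol synthesis (enzymes, and the scaffold Erg28), in pathway order from top to bottom, as the authors' FPKM in each library. The axis is logarithmic above 0.1 and linear below it, with orange symbols for AAV-Fgf7, blue for AAV-control, circles for rat 1 and triangles for rat 2. Of the 21 genes, 12 lie at 0 in every library, and Dhcr7 spans 2.70 to 4.63 FPKM.

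The wider pathway was read from 21 genes between acetyl-CoA and cholesterol, all for enzymes except Erg28, and 6 of them are among the 8 members. Of these, 12 had no count in any library, 9 had counts and 3 were tested (Dhcr7, Tm7sf2 and Erg28). edgeR called 0 of the 3, as it called 0 of all 6370 genes. Tm7sf2, a sterol reductase gene, and Erg28, a scaffold of the demethylation steps, stood at log2 values of -0.12 (SE 0.50) and 0.07 (SE 0.75) for AAV-Fgf7 over control, neither of which passed.

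Sums of tissue markers differed between libraries more than the sum of the 8 genes did. That sum rested on 70 to 83 counts per library, to which Idi1, Fdft1 and Fdps added none. The sum of the 8 genes also does not show that single members were level, since opposite differences cancel in it. Insig1 had 18 counts in AAV-Fgf7 ears against 30 in control ears, and Sqle 15 against 9. Sebaceous gland markers, of which 9 of 13 had a count and Scd3, Mc5r, Cidea and Plin5 were at 0, summed to 323 and 309 CPM in AAV-Fgf7 ears, against 285 and 136 CPM in control ears. All 10 basal keratinocyte markers had counts, and they summed to 1990 and 3742 CPM in AAV-Fgf7 ears and 1298 and 1247 CPM in control ears. Suprabasal markers (7 of 10 with a count, with Dsc1, Flg and Ivl at 0) summed to 1475 and 3476 CPM in AAV-Fgf7 ears and 1372 and 1049 CPM in control ears. In skeletal muscle markers, all 12 with counts, the sums were 29922 and 14670 CPM in AAV-Fgf7 ears and 13948 and 55249 CPM in control ears. The part of these cell types in the levels of the 8 genes was not tested, and in bulk tissue fewer cells of a type and less RNA per cell cannot be told apart.

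**Figure D3:**
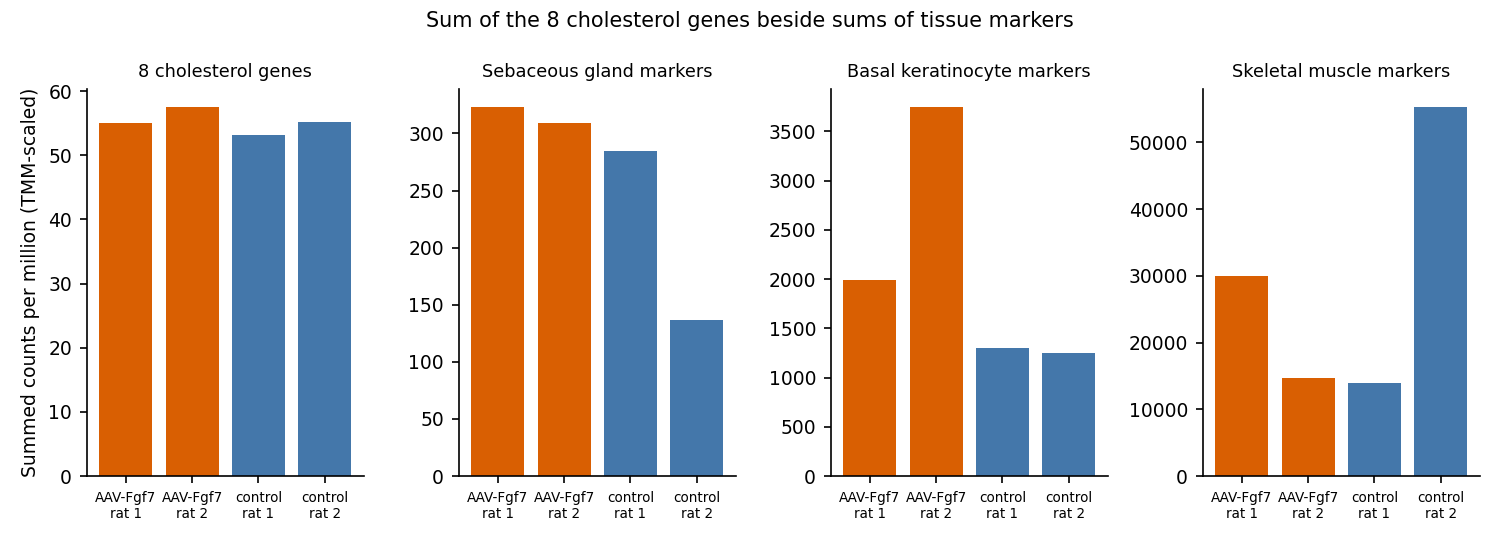
Sum of the 8 cholesterol genes and the summed sebaceous gland, basal keratinocyte and skeletal muscle markers, each as TMM-scaled CPM in the 4 libraries. Bars are single libraries with no error bar, orange for AAV-Fgf7 and blue for AAV-control, and each panel has its own axis from 0. The sum of the 8 genes, which rests on 70 to 83 counts per library, is nearly level. The control ear of rat 2 is lowest for the sebaceous markers (136 CPM) and highest for the muscle markers (55249 CPM).

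Genes that sense sterols and control SREBP were mostly covered. All 11 had counts and 9 were tested, with 0 called by edgeR, as among all 6370 genes. Scap, the escort of SREBP, stood at 61.5 ± 6.06 CPM in AAV-Fgf7 ears and 48.9 ± 1.47 CPM in control ears (SD, n = 2). The edgeR log2 fold change of 0.33 (SE 0.27) had an adjusted p of 0.9996. Both AAV-Fgf7 libraries lay above both controls for Scap, as they did for 14.8% of the 6370 genes. Insig2, the Insig gene that SREBP does not induce, stood at 38.8 and 38.1 CPM in AAV-Fgf7 ears and 36.4 and 38.6 CPM in control ears. Srebf1, which encodes the SREBP that favours fatty acid genes, had a log2 fold change of 0.08 (SE 0.53). The proteases that release SREBP, Mbtps1 and Mbtps2, stood at -0.32 (SE 0.24) and -0.50 (SE 0.41).

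Among ubiquitin ligase genes, Rnf145, Rnf139 and March6, the ligase for squalene epoxidase, stood at log2 values for AAV-Fgf7 over control of 0.20 (SE 0.28), 0.14 (SE 0.29) and -0.06 (SE 0.22).

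Uptake was measured for few genes. Of 10 genes of uptake and lysosomal release, 9 had a count and 2 were tested. edgeR called 0 of the 2, as it called 0 of all 6370 genes. Vldlr, a receptor for triglyceride-rich lipoproteins, stood at 117 and 81.0 CPM in the AAV-Fgf7 ears of rats 1 and 2 and at 74.4 and 151 CPM in their control ears. Its log2 fold change was -0.19 (SE 0.39), and the controls lay beyond the AAV-Fgf7 libraries on both sides. Mylip, a ligase that degrades lipoprotein receptors when sterols are plentiful, had 57.9 and 55.4 CPM in AAV-Fgf7 ears, against 82.0 and 63.2 CPM in control ears. Both AAV-Fgf7 libraries were the lower, as for 13.3% of the 6370 genes, with a log2 fold change of -0.36 (SE 0.27, edgeR adjusted p = 0.9996).

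Of 11 genes of efflux and esterification, 9 had a count and 3 were tested, with 0 called by edgeR and a median log2 fold change of 0.03. Abca1, which exports cholesterol, had 28.2 and 51.9 CPM in AAV-Fgf7 ears, against 44.8 and 33.9 CPM in control ears, so the groups overlapped (log2 fold change 0.03, SE 0.39). Apoe, which encodes the lipid carrier apolipoprotein E, was the best covered of the 3, with 334 and 335 counts in the AAV-Fgf7 ears of rats 1 and 2, against 397 and 386 in their control ears. Both AAV-Fgf7 libraries lay below both controls, as for 13.3% of the 6370 genes. For Apoe, the log2 fold change of -0.25 (SE 0.19) did not pass (edgeR adjusted p = 0.9996). Nr1h3, the sterol-activated receptor LXR-alpha, had 11 and 5 counts in AAV-Fgf7 ears and 0 and 12 in control ears. Over these lists and the synthesis genes, 53 genes in all, 38 had a count and 17 were tested. edgeR called 0 of the 17, beside 0 of all 6370 genes (0.0%). Since that fit called no gene, Fgf7 included, the count of 0 in each list does not show that its genes did not differ.

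**Figure D4:**
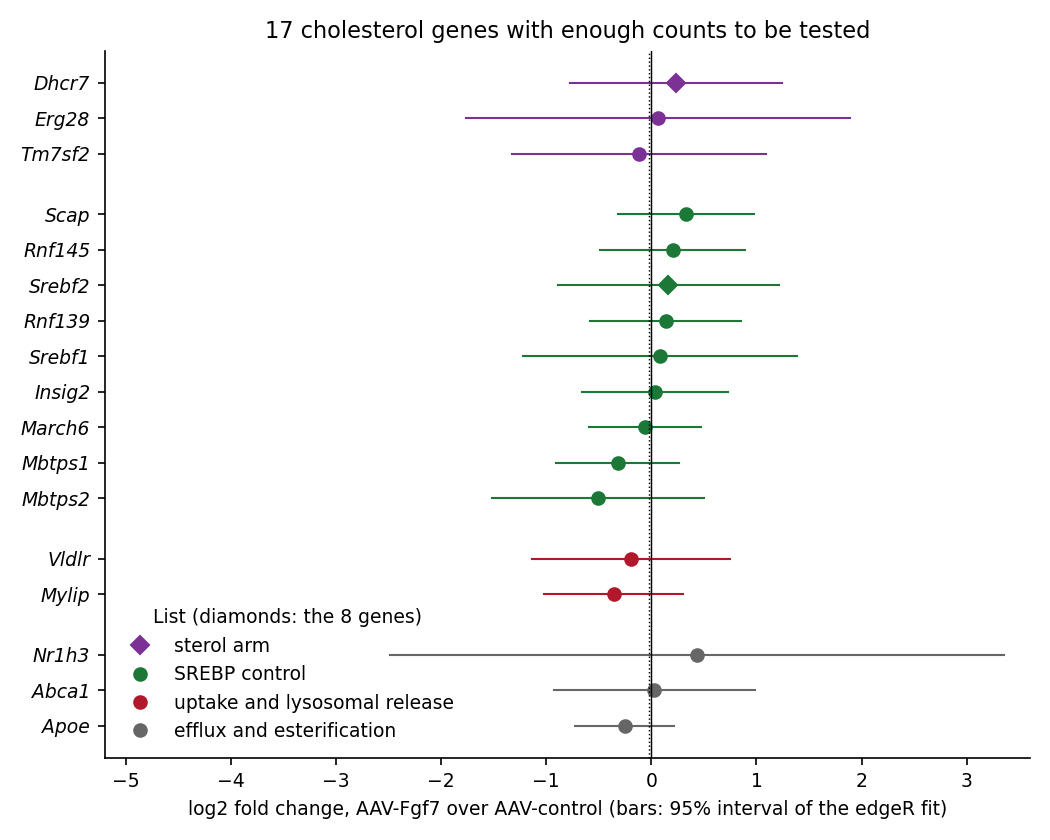
Log2 fold changes of AAV-Fgf7 over AAV-control for 17 tested cholesterol genes, grouped by list, with 95% intervals of the edgeR fit as bars and diamonds for the members Dhcr7 and Srebf2. The solid line is 0 and the dotted line is the median over all 6370 genes (-0.02). The points lie between -0.50 (Mbtps2) and 0.43 (Nr1h3), and the intervals are not adjusted for the number of genes.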

How the data were processed

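RNA-seq was made from ear skin of 4 samples, 2 with AAV-Fgf7 and 2 with AAV-control. The authors deposited raw counts per gene and FPKM per gene. The sources used here name no aligner or counter. The build was the rat assembly Rnor 6.0 (rn 6), per the submitters' processing notes, while all 54532 rows carry mouse identifiers. The descriptions of both AAV-Fgf7 samples point to 1 column, so the column numbered 2 was given to rat 2, whose title matches it. The ratios within a rat given for Dhcr7, Insig1 and Sqle rest on this assignment. So do the replicate block and every other statement that names the rat of an AAV-Fgf7 library.

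Genes were filtered with filterByExpr, scaled by TMM and tested two-sided with edgeR 4.0.16 (R 4.3.3), with Benjamini-Hochberg adjustment over 6370 genes at 0.05. The SE of a log2 fold change is its size over the root of F, and the 95% interval uses the fit's degrees of freedom. CPM is a count over the TMM-scaled library total. Levels between genes use the deposited FPKM. Intervals and floors (3 counts) cover counting error only. DESeq2 1.42.0 and limma 3.58.1 were alternatives. The edgeR script was tested on simulated data.

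The ears of a rat carry the same number in the titles, so the libraries were paired by animal, given the column assignment above. Across genes, which are not independent replicates, the deviations of the ears of a rat from their group means had r = -0.30 (Spearman -0.26). Ears paired this way thus tended to deviate in opposite directions, and whether the assignment is right was not tested. The common biological coefficient of variation was 29.1%. The members and lists were chosen with earlier results of these data known. All 8 members, Fgf7 and the tested genes of the pathway lists could be named. The reference genes were added after values were seen. Some genes of the pathway lists are not reported here, and counts over these lists leave them out.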

Additional observations from a re-analysis of the deposited data

How the results depend on the processing

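edgeR called no member under any alternative, among 2 to 5 members tested. The count of 0 called among all genes became 4 with DESeq2 and 3 with no filter beyond 1 count, and ran from 0 to 59 when 1 library was left out (59 without the control of rat 1, 40 without that of rat 2). With rat as a replicate block edgeR called 0 genes and 0 members, with 75 genes at an unadjusted p under 0.05 against 148 without the block. The main fit also called 0 genes and missed Fgf7, so equal calls do not show that pairing had no effect. With the crossed pairing, chosen after seeing the data, edgeR called 0 genes (301 at an unadjusted p under 0.05). The log2 fold change of Srebf1 turned to -0.064 with limma-voom, -0.031 with the replicate block, -0.019 on log2(FPKM + 1) and -0.061 on log2(FPKM + 0.1). That of Abca1 turned to -0.014, -0.015, -0.016 and -0.029 under the same settings. With 1 library left out, log2 fold changes that changed sign ran from -0.11 to 0.51 for Dhcr7, -0.24 to 0.47 for Srebf2, -0.73 to 0.60 for Srebf1, -0.53 to 0.43 for Tm7sf2, -0.68 to 1.13 for Erg28, -0.0053 to 0.082 for Insig2, -0.056 to 0.36 for Rnf139, -0.030 to 0.40 for Rnf145, -0.24 to 0.15 for March6, -0.61 to 0.41 for Vldlr, -0.48 to 0.40 for Abca1 and -0.50 to 5.99 for Nr1h3. The cause was not tested. In these fits 1 group is a single library, assumed to vary like those of the other group. Fgf7 passed in edgeR with the control ear of rat 1 or rat 2 left out (adjusted p = 0.00117 and 0.000548) and did not with the AAV-Fgf7 ear of rat 1 or rat 2 left out (adjusted p = 0.185 and 0.9995). Low counts limit Hmgcs1 and Sqle, which had at most 10 counts in a library. The cause of these low counts was not tested.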

Other observations

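Branches that leave or border the cholesterol pathway were also read. Of 12 fatty acid synthesis genes, many of them targets of SREBP, all had a count and 7 were tested. edgeR called 0 of the 7, beside 0 of all 6370 tested genes. The median log2 fold change of the 7 was 0.07, against -0.02 over all 6370. Elovl6, an elongase of fatty acids, had 107 and 95.5 CPM in the AAV-Fgf7 ears of rats 1 and 2, against 87.3 and 59.9 CPM in their control ears, a log2 fold change of 0.46 (SE 0.28, edgeR adjusted p = 0.9996). Scd1, a desaturase of sebocytes and adipocytes, had 57.2 and 70.6 CPM in AAV-Fgf7 ears and 26.6 and 99.2 CPM in control ears. Its controls lay beyond the AAV-Fgf7 libraries on both sides. Of 9 genes of the non-sterol isoprenoid branch, 7 had a count and 2 were tested. Fntb, a subunit of the farnesyltransferase that attaches farnesyl groups to proteins, had 13.4 and 5.54 CPM in AAV-Fgf7 ears, against 19.0 and 14.6 CPM in control ears, with a log2 fold change of -0.82 (SE 0.55, edgeR adjusted p = 0.9996). Both of its AAV-Fgf7 libraries lay below both controls, as for 13.3% of the 6370 tested genes.

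The remaining marker lists, given as summed CPM, also varied within the groups. Hair follicle markers summed to 4677 and 249 CPM in AAV-Fgf7 ears and 71.4 and 1512 CPM in control ears, and cartilage markers to 815 and 505 CPM in AAV-Fgf7 ears and 427 and 1679 CPM in control ears. Adipocyte markers stood at 323 and 323 CPM in AAV-Fgf7 ears against 273 and 519 CPM in control ears, and macrophage markers at 205 and 278 CPM in AAV-Fgf7 ears against 382 and 148 CPM in control ears. Fibroblast markers summed to 40127 and 27435 CPM in AAV-Fgf7 ears and 34396 and 39430 CPM in control ears. Endothelial markers were at 131 and 138 CPM in AAV-Fgf7 ears and 128 and 153 CPM in control ears, and Schwann cell and melanocyte markers at 1230 and 1546 CPM in AAV-Fgf7 ears and 1386 and 1497 CPM in control ears.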
